A study of Mus musculus with 300 samples.

Results

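The integrin chains of lymphocytes Itgb2, Itgb7, Itgb1, Itga4, Itgal and Itgae were followed in single cells of the embryonic mouse thymus. These 6 genes, out of 13737 features in the matrix, were chosen by name, with earlier results of these data known. The cells came from the thymus of the 5x polychromILC reporter strain at embryonic day 15.5 and were sorted one by one as early thymic progenitors (ETPs), the youngest T-cell precursors of the thymus. Each cell was lysed in a plate well and its polyadenylated RNA was copied and amplified. The labels name 1 group of 300 cells from 4 mouse ids (1A, 1B, 2A and 2B), and 261 of these cells have values. No treatment is named, and all cells are of the reporter strain, with no cells of another strain beside them. The sources used here do not say whether an id is 1 embryo or several pooled, or how ETPs were gated. Between cells with the innate lymphoid genes Klrd1 or Il2rb and cells high in the progenitor gene Kit, Itgb2 was the 1 member of the 6 whose difference passed the test over mice, where 12.1% of all genes tested passed, and its call was lost in 9 of the alternatives tried.

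Integrins are cell surface receptors built of 1 alpha chain and 1 beta chain, and neither chain reaches the surface alone. On lymphocytes they hold cells to vessel walls, stroma and target cells once signals inside the cell switch them to a state of high affinity. Alpha-L (Itgal) with beta-2 (Itgb2) forms LFA-1, the receptor for ICAMs. Alpha-4 (Itga4) pairs with beta-1 (Itgb1) to form VLA-4, which binds VCAM-1 and fibronectin and is used by progenitors, or with beta-7 (Itgb7) to form the receptor for MAdCAM-1 that guides lymphocytes to the gut. Alpha-E (Itgae, CD103) pairs with beta-7 alone and binds E-cadherin on epithelium.

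In the GRCm38 build Itgb2 (ENSMUSG00000000290.13) lies on chromosome 10 at 77530252-77565708 and Itgal (ENSMUSG00000030830.18) on chromosome 7 at 127296260-127335138, both on the plus strand. Itga4 (ENSMUSG00000027009.18) lies on chromosome 2 at 79255426-79333123 and Itgb1 (ENSMUSG00000025809.15) on chromosome 8 at 128685654-128733200, both on the plus strand. Itgb7 (ENSMUSG00000001281.9) lies on the minus strand of chromosome 15 at 102215995-102231944, and Itgae (ENSMUSG00000005947.11) on the plus strand of chromosome 11 at 73090583-73147446. All 6 are annotated as protein-coding.

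The Itgb2 values carry an uncertainty that the sequence shows. Gm14699, a processed pseudogene (an intronless copy) on the minus strand of chromosome X at 68782640-68782867, matches the last coding bases of Itgb2, transcript positions 2294 to 2521, at 220 of 228 bases, or 96.5%. The 2 sequences are shown 5′ to 3′ in the Itgb2 reading direction, taken from the GENCODE annotation of GRCm38, with the 8 differing bases in capitals.
Itgb2: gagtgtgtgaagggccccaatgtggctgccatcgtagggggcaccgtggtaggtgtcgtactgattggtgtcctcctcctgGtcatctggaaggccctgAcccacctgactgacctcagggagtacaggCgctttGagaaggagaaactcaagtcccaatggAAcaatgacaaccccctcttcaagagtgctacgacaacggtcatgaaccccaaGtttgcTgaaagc
Gm14699: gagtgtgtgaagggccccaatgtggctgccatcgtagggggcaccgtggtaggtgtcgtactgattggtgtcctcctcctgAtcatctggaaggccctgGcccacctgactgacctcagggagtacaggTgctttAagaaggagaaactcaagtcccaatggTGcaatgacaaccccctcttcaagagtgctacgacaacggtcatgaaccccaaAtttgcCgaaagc
The copy shares 72 words of 31 bases with Itgb2. Gm14699 was detected in 141 cells, or 54.02%, and in 0 of the 32 cells without Itgb2. Reads of Itgb2 and its copy could therefore be split between them, so the Itgb2 level is uncertain. Adding the levels of both left the class difference described below at 3.76, against 3.75 on the log2 scale for Itgb2 alone. Itga4 shared at most 28 such words with any other gene.

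The deposited values are log2 expression, and the cells fell into 4 sets that the authors' correction treated separately, recognised by many values shared exactly between cells. Inside a set, the lowest value that a gene repeats across cells stands for no reads, and a cell above it counted as one with the gene detected. "A level of at least 10" is 10 or more on the linear scale above no reads. Sets and mice overlap only in part. Set 1 (73 cells) is made up of cells from 1B, 2A and 2B (2, 35 and 36), and set 2 (67 cells) of cells from 1A, 1B and 2A (61, 3 and 3). Set 3 (65 cells) has 1 cell of 1A beside 64 of 1B, and set 4 (56 cells) draws 5, 26 and 25 cells from 1A, 2A and 2B. Mice 2A and 2B thus share 2 sets and may not be independent units. The mouse ids run in blocks along the cell titles sorted as text, while the sets follow runs of wells in number order. Well 9 of plate AF1 is labelled 1A, between wells 8 and 10 of 1B. Wells 7, 8 and 9 of plate AF2 are labelled 2A, between wells 6 and 10 of 1A. Some ids may therefore not be those of the animals, which could not be tested, and differences between mice carry this uncertainty. Cells had a median of 7782 detected genes (5073 to 10337), and the read depth is unknown.

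Where a gene repeats no lowest value in a set, all cells of that set count as detected, its share there is fixed at 100%, and its level is a lower bound. This was so for Itgb1 in every set, for Itgal outside set 1, for Itgb7 in set 1 and for Itga4 in set 4, while Itgb2 and Itgae had a level at no reads in all 4 sets.

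The LFA-1 chains were both found in most cells. Itgal, with a level at no reads in set 1 alone, was detected in 71 of the 73 cells of that set. It had median log2 values of 8.12, 8.20, 8.17 and 7.71 in 1A, 1B, 2A and 2B, and reached a level of at least 10 in 89.6%, 97.1%, 96.9% and 86.9% of their cells. Itgb2 was detected in 89.6%, 86.96%, 90.6% and 83.6% of cells, a mean of 87.7 ± 3.12% (SD, n = 4 mice). At a level of at least 10 it was found in 73.1%, 68.1%, 73.4% and 54.1% of cells of 1A, 1B, 2A and 2B. Itgb2 was thus spread over a wide range: inside each mouse some cells stood at no reads and others above a log2 value of 11, with medians of 7.19, 7.24, 7.45 and 6.08. The exact 95% Clopper-Pearson interval of the 2B share, 40.8 to 66.9%, overlapped those of the other 3 mice.

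The VLA-4 chains were detected in most cells of every mouse. Itgb1 was counted as detected in all 261 cells, by that rule, and at a level of at least 10 in 88.1%, 91.3%, 90.6% and 93.4% of cells of 1A, 1B, 2A and 2B. Itga4 was detected in 91.04%, 94.2%, 95.3% and 98.4% of cells, and reached a level of at least 10 in 70.1%, 86.96%, 82.8% and 86.9%. Itgb7 was detected in 97.0%, 97.1%, 96.9% and 98.4%, and reached a level of at least 10 in 89.6%, 88.4%, 84.4% and 81.97%. Of these shares, those of Itga4 in set 4 and of Itgb7 in set 1 were fixed at 100%. Median log2 values differed little between mice for each of these genes, from 7.96 to 8.40 for Itgb1, from 7.87 to 8.67 for Itga4 and from 8.22 to 8.60 for Itgb7, which is less than the spread of cells inside any mouse. Values are not compared between genes, since the sources used here do not say whether they are scaled by gene length.

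**Figure D1:**
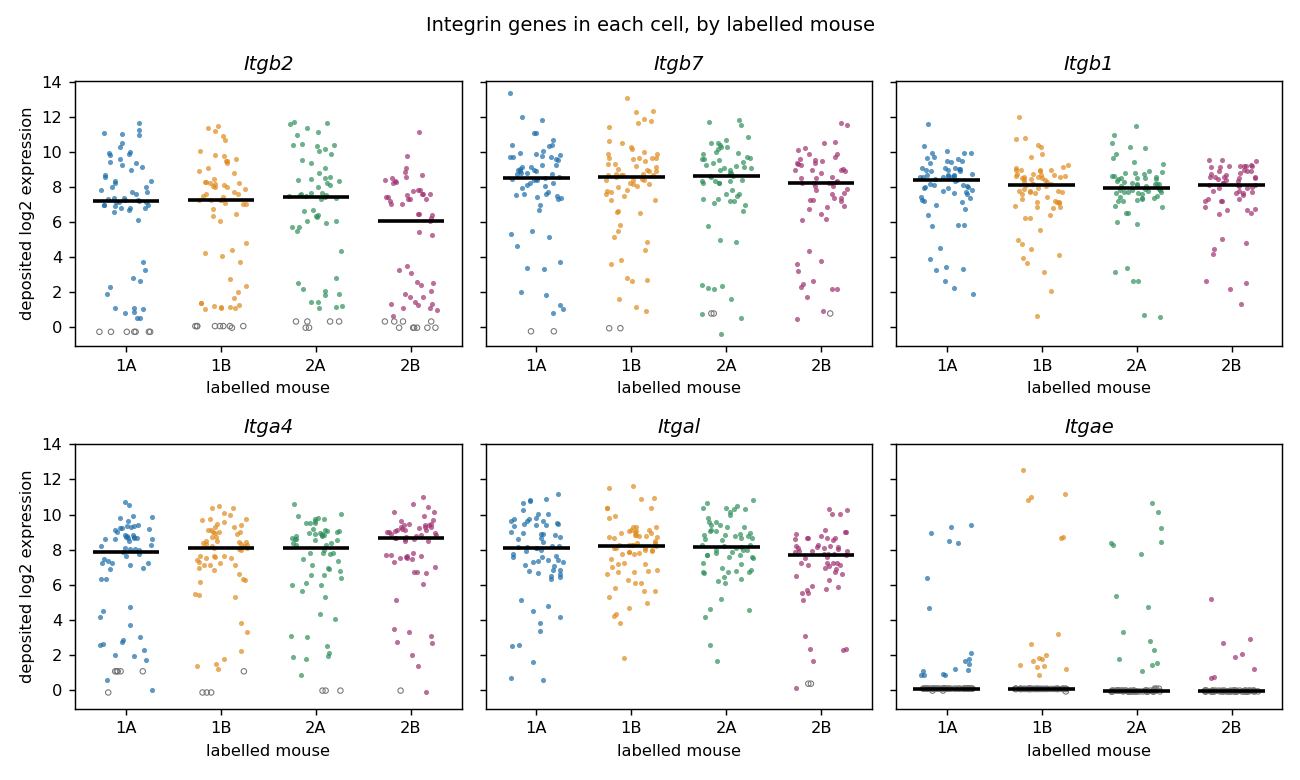
Deposited log2 expression (vertical axis) of each integrin gene in every cell of the labelled mice 1A, 1B, 2A and 2B (horizontal axis). Filled points are cells with the gene detected, open grey points are cells at no reads, and bars are medians; Itgae is at no reads in most cells, and the medians of Itgb7, Itgb1 and Itga4 lie between 7.87 and 8.67 in every mouse.

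Itgae was the one chain that most cells lacked. It was detected in 26.9%, 24.6%, 25% and 13.1% of cells of 1A, 1B, 2A and 2B, a mean of 22.4 ± 6.27% (SD, n = 4 mice). At a level of at least 10 it was found in 7 of 67, 6 of 69, 9 of 64 and 1 of 61 cells. These 23 cells are few, and their log2 values reached 9.39 in 1A, 12.55 in 1B, 10.68 in 2A and 5.20 in 2B. The exact 95% interval of the share in 2B, 0.0415 to 8.80%, overlapped that of each other mouse.

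Both chains of a dimer in the same cell were common for 3 of the 4 pairs. At a level of at least 10, Itga4 and Itgb1 were both present in 65.7%, 81.2%, 76.6% and 81.97% of cells of 1A, 1B, 2A and 2B. Itga4 and Itgb7 were both present in 64.2%, 76.8%, 68.8% and 72.1%, and Itgal and Itgb2 in 70.1%, 66.7%, 71.9% and 50.8%. Itgae and Itgb7 met in 6, 6, 8 and 0 cells, or 7.54 ± 5.32% (mean ± SD of 4 mice). Of the 23 cells with Itgae at this level, 20 also had Itgb7, its only partner, and 3 did not. These shares lay close to the product of the single-chain shares: the mean excess was 1.99 ± 1.34 percentage points for Itga4 with Itgb1, 0.27 ± 1.10 for Itga4 with Itgb7, 2.43 ± 2.11 for Itgal with Itgb2 and -0.03 ± 1.06 for Itgae with Itgb7 (SD, n = 4 mice). The excess was above 0 in 4 of 4 mice for VLA-4 and for LFA-1, and in 2 of 4 mice for each of the beta-7 pairs. The excess is a description without a test. In each pair at least 1 chain reached this level in most cells, which limits how large the excess can be. A small excess therefore does not show that the chains occur independently. Of the LFA-1 chains, Itgb2 was more often below this level: 72 cells had Itgal alone at this level, 6 had Itgb2 alone and 13 had neither. Below this level does not mean absent, since both were counted as detected in 227 of 261 cells. Values are not comparable between genes, so the shared cutoff does not rank the 2 chains.

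Cells were then split by genes other than the integrins. The Klrd1/Il2rb class held cells with a level of at least 10 for Klrd1 (CD94, a natural killer receptor chain) or Il2rb (the receptor chain for IL-2 and IL-15 that natural killer and other innate lymphoid cells carry). The Kit-high class held cells with Kit, the stem cell factor receptor of progenitors, detected and at or above the median of its set. There were 11, 10, 10 and 3 Klrd1/Il2rb cells and 32, 33, 31 and 31 Kit-high cells in mice 1A, 1B, 2A and 2B. Another 5 cells met both definitions and 95 met neither.

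The classes differed in more than these genes. Of the Klrd1/Il2rb cells 23 of 34 stood in the first 8 wells of their set, ordered by plate and well, against 6 of 127 Kit-high cells. The median number of detected genes was 6673 in Klrd1/Il2rb cells and 8027 in Kit-high cells. Levels of at least 10 for 2 or more markers of dendritic cells, macrophages or basophils and mast cells were found in 11 of 34 Klrd1/Il2rb cells and 19 of 127 Kit-high cells. The mice were unlike in this: all 9 dendritic markers were detected in both classes, with a median summed level per mouse of 35.7 to 37500 in Klrd1/Il2rb cells and 133 to 263 in Kit-high cells, and the highest median was that of the 3 Klrd1/Il2rb cells of 2B. All 16 innate lymphoid and natural killer markers were detected in both classes, with median summed levels per mouse of 77.1 to 24045 in Klrd1/Il2rb cells and 245 to 514 in Kit-high cells, and the lowest median was again that of 2B. This list includes Klrd1 and Il2rb, so its sum in Klrd1/Il2rb cells is raised by the class definition. Of its 15 tested members 1, Klrd1 itself, was higher and 0 were lower, beside 0.627% and 11.5% of all genes tested. The 9 progenitor markers had a median summed level of 135 in Klrd1/Il2rb cells and 4327 in Kit-high cells, with 0 genes higher and 5 lower by the test described below, among them Kit, which defined the class. Summed levels were 2568 in Klrd1/Il2rb cells and 1015 in Kit-high cells for T specification markers, 2.72 and 32.5 for macrophage markers, 23.9 and 54.8 for B-cell markers, and 0 and 3.34 for erythroid and megakaryocyte markers. The T specification list was split. At a level of at least 10, Cd7 (97.1% and 57.5%), Cd3g, Thy1 and Cd3d were found in more Klrd1/Il2rb than Kit-high cells. Tcf7 (35.3% and 71.7%), Il2ra (11.8% and 47.2%), Gata3 (64.7% and 81.9%), Lck, Cd3e and Bcl11b went the other way. The gamma-delta T markers had a summed level of 301 in Klrd1/Il2rb cells and 67.8 in Kit-high cells, but most of the list went the other way. Cd3g, which T cells of both kinds carry, reached a level of at least 10 in 70.6% of Klrd1/Il2rb cells and 10.2% of Kit-high cells, against 5.88% and 37.01% for Trdc, 29.4% and 47.2% for Tcrg-C1, 5.88% and 17.3% for Tcrg-C2, and 0% and 46.5% for Sox13. Of the 5 genes tested 0 were higher and 1, Sox13, was lower, with a median difference of -1.20. Klrk1 (NKG2D, a natural killer receptor) reached a level of at least 10 in 6 of 11, 9 of 10, 9 of 10 and 0 of 3 Klrd1/Il2rb cells of 1A, 1B, 2A and 2B. The part of well position, detected genes and other cell types in the differences below was not tested beyond the alternatives given.

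Itgb2, the beta chain of LFA-1, was higher in Klrd1/Il2rb cells than in Kit-high cells in every mouse. Klrd1/Il2rb cells had log2 values with a lowest, median and highest of 3.28, 9.81 and 11.64 in 1A, 4.23, 9.92 and 11.49 in 1B, and 7.67, 10.42 and 11.71 in 2A, and the 3 cells of 2B had 3.08, 8.29 and 11.14. Kit-high cells had -0.26, 6.98 and 11.09 in 1A, 0.07, 7.24 and 9.50 in 1B, -0.02, 6.07 and 10.31 in 2A, and -0.02, 7.18 and 8.82 in 2B. The classes overlapped in each mouse, but no Klrd1/Il2rb cell was at no reads. Itgb2 was detected in 34 of 34 Klrd1/Il2rb cells and 108 of 127 Kit-high cells, and reached a level of at least 10 in 33 of 34 and 82 of 127. Given the set, the difference was 2.53, 4.30, 5.41 and 2.75 on the log2 scale in 1A, 1B, 2A and 2B, with a mean of 3.75 ± 1.36 (SD, n = 4 mice; adjusted p = 0.0237, limma over 12439 genes with Benjamini-Hochberg adjustment). In 1A and 1B the differences given the set, here and for the other integrin genes, rest on 5 of 11 and 7 of 10 Klrd1/Il2rb cells. Only these had Kit-high cells of their mouse in the same set, while the medians and counts are of all cells. The median gene differed by -0.67, and relative to it Itgb2 stood 4.42 higher. Across all genes tested 1510, or 12.1%, passed this test, 78 (0.627%) of them higher and 1432 (11.5%) lower in Klrd1/Il2rb cells. In the exact two-sided sign-flip permutation test over the 4 mice, 2 of 16 sign assignments were as extreme for Itgb2, which is the smallest share that 4 mice allow.

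The limma call for Itgb2 did not hold under every alternative. It was lost in 9 of them, among them the fit without cells of other types (3.62, adjusted p = 0.199), the fit without the first 8 wells of each set (2.92, adjusted p = 0.173) and the fit given the number of detected genes (3.56, adjusted p = 0.188), over a range of 0.00197 to 0.199 for all alternatives. With detected genes as a covariate limma called 0 genes, against 1510 without it, while 1582 genes had an unadjusted p under 0.05.

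Itgal, the alpha chain of LFA-1, had a positive difference in each mouse once the set was taken into account, which did not pass the test over mice. Its lowest, median and highest log2 values were 0.58, 9.42 and 11.14 in 1A, 5.83, 10.14 and 11.63 in 1B, 6.71, 9.87 and 10.82 in 2A, and 5.55, 7.26 and 10.31 in 2B in Klrd1/Il2rb cells. In Kit-high cells they were 1.58, 8.06 and 10.87 in 1A, 1.81, 7.93 and 9.80 in 1B, 1.62, 7.96 and 10.16 in 2A, and 0.36, 7.74 and 10.23 in 2B. Medians were higher in the Klrd1/Il2rb class in 3 mice and lower in 2B, and the classes overlapped throughout. Given the set, the differences were 0.93, 2.57, 2.18 and 0.73, a mean of 1.60 ± 0.91 (SD, n = 4 mice; limma adjusted p = 0.0719).

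Itga4, the alpha chain of VLA-4 and of the MAdCAM-1 receptor, had the opposite sign. Its lowest, median and highest log2 values were -0.14, 2.76 and 9.15 in 1A, -0.14, 2.27 and 8.11 in 1B, -0.04, 3.70 and 8.75 in 2A, and 2.66, 9.21 and 10.97 in 2B in Klrd1/Il2rb cells. In Kit-high cells they were 1.06, 8.44 and 10.55 in 1A, 1.34, 8.30 and 10.49 in 1B, 1.90, 8.68 and 10.03 in 2A, and -0.13, 8.67 and 10.57 in 2B. In 1A, 1B and 2A the median of Klrd1/Il2rb cells was lower by more than 4 log2 units, in 2B it was higher, and the classes overlapped in each mouse. A level of at least 10 was reached by 5 of 11, 5 of 10, 5 of 10 and 2 of 3 Klrd1/Il2rb cells, against 27 of 32, 32 of 33, 30 of 31 and 30 of 31 Kit-high cells of 1A, 1B, 2A and 2B. The differences given the set were -1.70, -5.82, -3.81 and -0.81, negative in 4 of 4 mice, with a mean of -3.03 ± 2.24 (SD, n = 4 mice; limma adjusted p = 0.0693).

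The beta chains that pair with alpha-4 showed no single direction. Itgb1 had median log2 values of 8.58, 8.80, 8.31 and 2.65 in Klrd1/Il2rb cells of 1A, 1B, 2A and 2B, against 8.26, 8.25, 8.02 and 8.23 in Kit-high cells. The 3 cells of 2B stood at 1.34, 2.65 and 4.79, below every Kit-high cell of that mouse, whose lowest value was 5.05. The mean Itgb1 difference was -1.18 ± 2.72 (SD, n = 4 mice; limma adjusted p = 0.460), and it was 0.13 without 2B. Itgb7 had medians of 6.95, 11.54, 10.06 and 9.56 in Klrd1/Il2rb cells, against 8.72, 8.14, 8.36 and 8.35 in Kit-high cells, so that 1A alone had the lower median in Klrd1/Il2rb cells. Given the set the Itgb7 differences were -4.78, 3.04, 2.46 and -0.37, a mean of 0.09 ± 3.57 (SD, n = 4 mice; limma adjusted p = 0.971). The mice disagree by more than any mean difference of Itgb7.

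**Figure D2:**
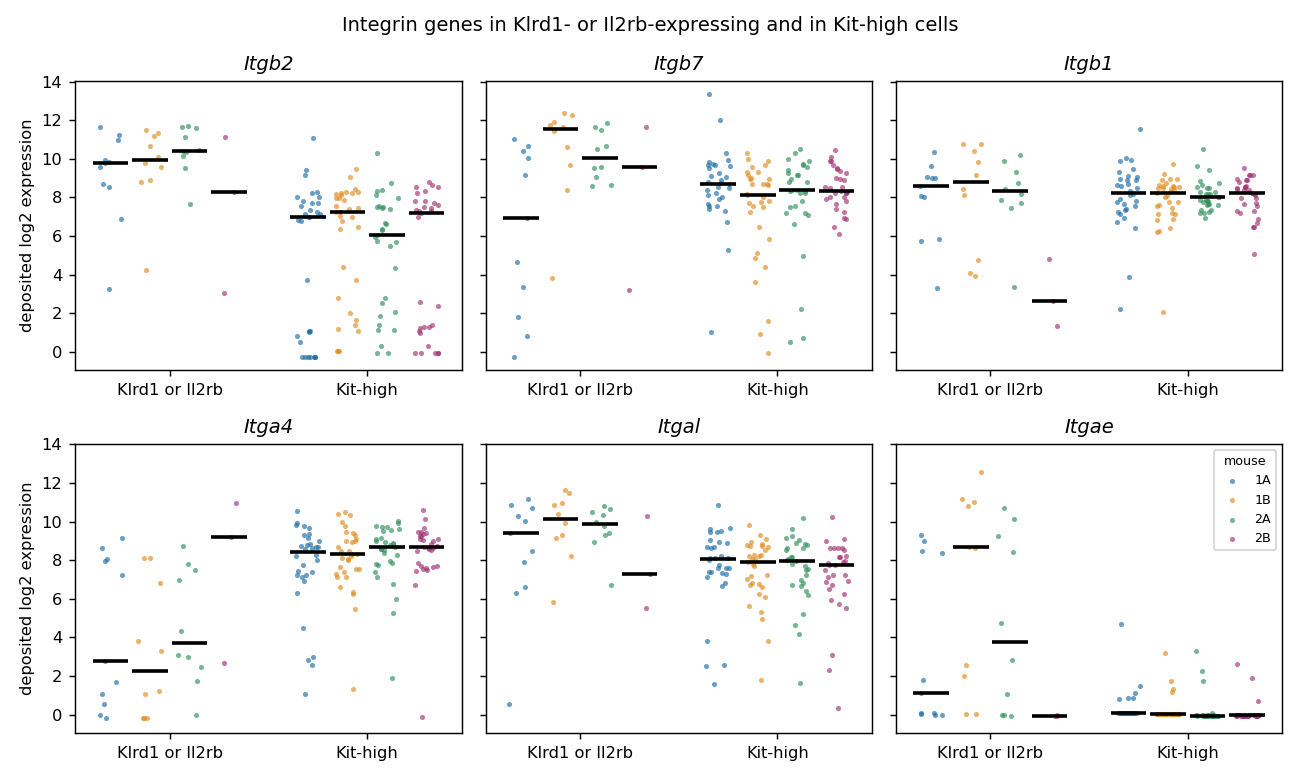
Deposited log2 expression (vertical axis) of each integrin gene in the 34 cells with Klrd1 or Il2rb (left) and the 127 Kit-high cells (right), with 1 point per cell, colours for the labelled mice and bars at each mouse's median. Itgb2 is at no reads in none of the 34 cells, Itga4 is low in part of the 34 cells of each mouse, and Itgae is high in cells of 1A, 1B and 2A with Klrd1 or Il2rb but in none of the 3 such cells of 2B.

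Itgae was high in part of the Klrd1/Il2rb class and at or near no reads in Kit-high cells. It reached a level of at least 10 in 4 of 11, 6 of 10, 5 of 10 and 0 of 3 Klrd1/Il2rb cells of 1A, 1B, 2A and 2B, against 1 of 32, 0 of 33, 0 of 31 and 0 of 31 Kit-high cells. The highest log2 values were 9.30, 12.55, 10.68 and -0.04 in Klrd1/Il2rb cells, against 4.69, 3.20, 3.32 and 2.65 in Kit-high cells. The lowest cells of both classes were at no reads, so the classes overlapped. The differences given the set were 2.04, 5.84, 4.50 and -0.18, a mean of 3.05 ± 2.67 (SD, n = 4 mice; limma adjusted p = 0.0956). The 0 of 3 in 2B allows a share of up to 70.8% (exact 95% interval).

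The 23 cells with Itgae at a level of at least 10 were 15 Klrd1/Il2rb cells, 1 Kit-high cell and 7 cells meeting neither definition. A further count, made after these values were seen, showed Klrk1 at a level of at least 10 in 15 of the 15 Klrd1/Il2rb cells and in 1 of the 7 cells meeting neither definition, while 24 of all 34 Klrd1/Il2rb cells and 0 of 127 Kit-high cells had it. Dendritic markers, by 2 or more of Siglech, Pld4, Spib and Ly6d, were carried by 1 of the 15 and by 5 of the 7 cells. Among Klrd1/Il2rb cells without markers of other types, 14 of 23 had Itgae at this level, against 1 of 108 such Kit-high cells. By position, Itgae reached this level in 14 of 23 Klrd1/Il2rb cells of the first 8 wells and in 1 of 11 from later wells, against 0 of 6 and 1 of 121 Kit-high cells. Well position and Itgae thus moved together inside the Klrd1/Il2rb class, and the part of the wells was not tested.

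The pairs of chains followed the single genes. Both LFA-1 chains reached a level of at least 10 in 32 of 34 Klrd1/Il2rb cells, or 94.1% (exact 95% interval 80.3 to 99.3%), and in 80 of 127 Kit-high cells, or 62.99% (53.98 to 71.4%). Itga4 with Itgb1 did so in 16 of 34 Klrd1/Il2rb cells, or 47.1% (29.8 to 64.9%), and in 116 of 127 Kit-high cells, or 91.3% (85.03 to 95.6%). In each mouse the VLA-4 share was lower in Klrd1/Il2rb cells, at 5 of 11, 5 of 10, 5 of 10 and 1 of 3 in 1A, 1B, 2A and 2B, against 25 of 32, 31 of 33, 30 of 31 and 30 of 31 in Kit-high cells. Itga4 with Itgb7 met in 14 of 34 Klrd1/Il2rb cells and 113 of 127 Kit-high cells. Itgae with Itgb7 met in 14 of 34 Klrd1/Il2rb cells, or 41.2% (24.6 to 59.3%), and in 1 of 127 Kit-high cells, or 0.787% (0.0199 to 4.31%). In these counts over pooled cells, the 2 classes differed in which pairs were complete at this level. All 4 pairs were complete in 6 of 34 Klrd1/Il2rb cells and 1 of 127 Kit-high cells, and 3 pairs in 8 of 34 and 69 of 127. The intervals cover counting error only, cells of 1 mouse are not independent replicates, and pair shares were not tested.

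With the 4 correction sets in place of the 4 mice as units, limma passed 4 of the 6 genes, against a background of 24.4% of all genes tested. Itgb2 differed by 4.85, 3.39, 4.50 and 4.53 on the log2 scale in sets 1 to 4 (mean 4.32, adjusted p = 0.00197), Itgae by 3.85, 4.53, 5.08 and 3.76 (mean 4.31, adjusted p = 0.00197), and Itgal by 2.42, 1.26, 1.40 and 1.45 (mean 1.63, adjusted p = 0.0183). Itga4 differed by -3.95, -2.03, -6.12 and -2.89 (mean -3.75, adjusted p = 0.0115). Itgb7 and Itgb1 did not pass, at means of 0.53 (adjusted p = 0.694) and -0.43 (adjusted p = 0.517). The sets spread less than the mice for Itgae, with an SD of 0.62 over sets and 2.67 over mice, and each set held 7 to 10 Klrd1/Il2rb cells. Once the set is taken into account, 5 of the 11 Klrd1/Il2rb cells of 1A and 7 of the 10 of 1B still had Kit-high cells of their mouse in the same set to be compared with. Without the first 8 wells and with sets as units, where sets 1 to 4 kept 3, 5, 1 and 2 Klrd1/Il2rb cells and so fell below the minimum of 3 cells in sets 3 and 4, none of the 6 genes passed (0 of all genes tested did, with 2671 at an unadjusted p under 0.05), and Itgae differed by 0.59 (limma adjusted p = 0.596). Without cells of other types and with sets as units, the same 4 genes passed, against 18.5% of all genes tested, with Itgae at 5.81 (limma adjusted p = 0.00499).

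**Figure D3:**
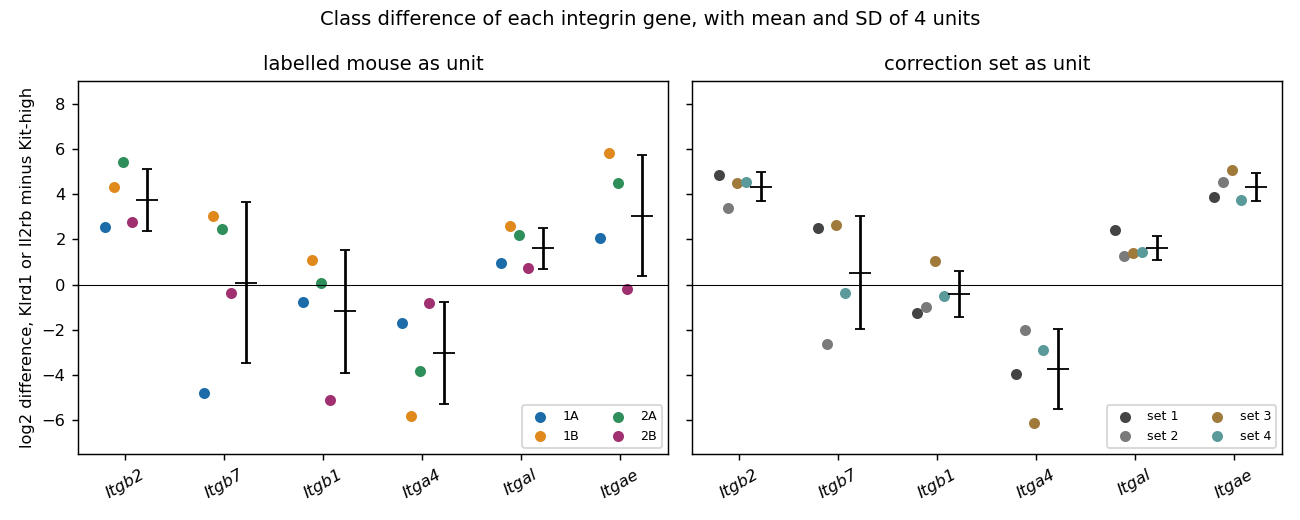
Log2 difference of each integrin gene between cells with Klrd1 or Il2rb and Kit-high cells (vertical axis), for each labelled mouse given the set (left) and for each correction set (right). Points are the 4 units, and the black bars are their mean and SD; Itgb2 is above 0 and Itga4 below 0 in all 4 mice and all 4 sets, and Itgae lies at -0.18 in mouse 2B but between 3.76 and 5.08 in the sets.

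The differences of Klrk1 and of Il2rb, which helped define the class, were widest in 1B and 2A. Il2rb differed by 8.79 and 9.15 on the log2 scale and Klrk1 by 7.92 and 7.83 in 1B and 2A between Klrd1/Il2rb and Kit-high cells. Not all innate markers did so: Nkg7, a granule protein of natural killer cells, differed by -2.97, 0.59, 1.61 and -5.22 in 1A, 1B, 2A and 2B. In 1A and 2B the Klrk1 differences were 2.14 and 0.45, while the dendritic marker Siglech differed by 5.43 and 7.49, against 2.54 in 1B and 0.12 in 2A. Itgb2, Itga4, Itgal and Itgae each had their 2 widest differences in 1B and 2A, and Itgb7 and Itgb1 did not. Well position was split in the same way. In the first 8 wells of their set stood 6 of 11, 9 of 10, 8 of 10 and 0 of 3 Klrd1/Il2rb cells of 1A, 1B, 2A and 2B. The 5 cells of 1A with Kit-high cells of their mouse in the same set all came from later wells. Whether well position or the share of dendritic-marker cells sets these differences was not tested.

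Inside mice, given the number of detected genes and the set, the 6 genes varied together only in part over the 261 cells. Spearman correlations, averaged over the 4 mice, are descriptions, since cells of a mouse are not independent replicates. Itgb2 went with its partner Itgal at a mean correlation of 0.35 and with Itgb7 at 0.33, and Itgb7 went with Itgal at 0.23, each positive in 4 of 4 mice. Itga4 went with Itgb1, its partner in VLA-4, at -0.02, and with Itgb7 at -0.07. Itgb2 and Itga4 had a mean correlation of -0.21, negative in 4 of 4 mice.

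The 3 genes most like each integrin gene were taken from 12439 genes by the same measure. Itgb2 was closest to its pseudogene copy Gm14699 (0.75), then to Laptm5 (0.41), a lysosomal membrane protein of blood cells, and Gnai2 (0.39), a G-protein subunit that transmits chemokine signals. Itgal was closest to Laptm5 (0.40), the cytoplasmic actin gene Actb (0.39) and the myosin gene Myo1f (0.38). Itgb7 was closest to Actr3 (0.42), a subunit of the Arp2/3 complex that nucleates actin branches, Arhgap45 (0.39) and Coro1a (0.39), an actin-binding coronin of blood cells. Itga4 was closest to Skp1a (0.48), a ubiquitin ligase subunit, Deptor (0.47), an mTOR inhibitor, and Myb (0.47), a progenitor transcription factor. Itgb1 was closest to Esyt1 (0.34), Hip1r (0.31) and Nucb1 (0.31). Itgae was closest to Togaram2 (0.40), Ifng (0.37), the gene of interferon-gamma, and Tnfrsf9 (0.37), which encodes the costimulatory receptor 4-1BB. The Itgae correlations had lowest mouse values of -0.10, -0.07 and -0.01 and means of 0.17, 0.19 and 0.18 without the first 8 wells. Togaram2 and Ifng were detected in 10.3% and 13.8% of cells, so these correlations rest on few cells.

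Of 20 other integrin chains, 12 were measured in enough cells to be tested, and 0 were higher and 1 was lower in Klrd1/Il2rb cells by limma over mice. Among all genes tested 11.5% were lower, so 1 of 12 is near the background. The median difference of the 12 was -0.22, against -0.67 for all genes tested. Itga2b (CD41, a chain of platelets, mast cells and progenitors) differed by -2.21, -2.39, -3.52 and -2.53 in 1A, 1B, 2A and 2B (mean -2.66 ± 0.59, SD, n = 4 mice; adjusted p = 0.0226). The basophil and mast cell markers, among which Itga2b counts, had a median summed level of 3.70 in Klrd1/Il2rb cells and 234 in Kit-high cells. At a level of at least 10, Cpa3 was found in 8.82% and 74.8% of these cells, Itga2b itself in 5.88% and 44.1%, and Gata2 in 2.94% and 14.2%. The other markers were rare in both classes: Mcpt8 (2.94% and 4.72%), Prss34 (2.94% and 3.94%), Ms4a2 (2.94% and 2.36%) and Fcer1a (0% and 0.787%). Itgax (CD11c, a chain of dendritic cells) differed by 3.22 ± 2.77 (adjusted p = 0.0908), with its widest differences in 1A and 2B. Itga1 (CD49a, a collagen receptor chain carried by tissue-resident lymphocytes) differed by 2.83 ± 3.12 (adjusted p = 0.149), with its widest differences in 1B and 2A.

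**Figure D4:**
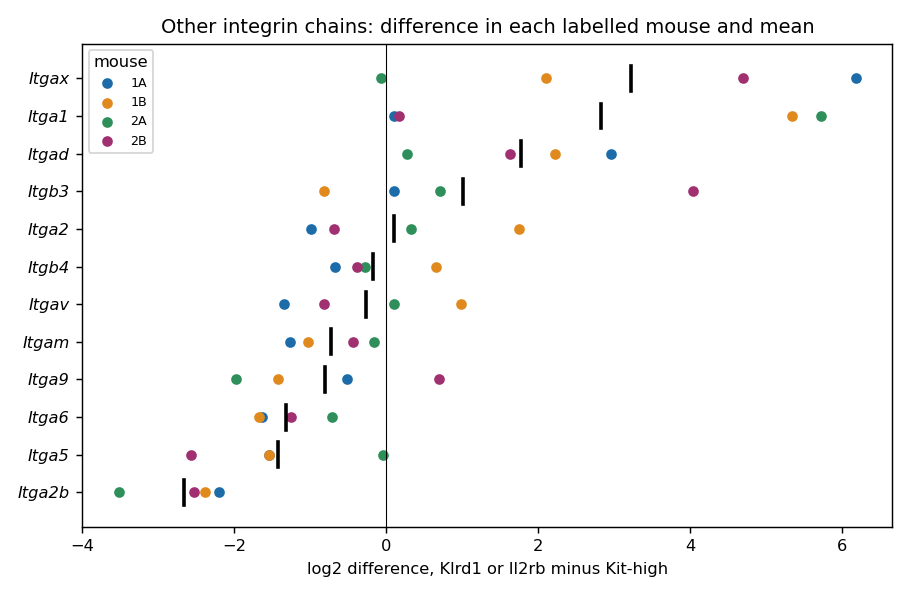
Log2 difference between cells with Klrd1 or Il2rb and Kit-high cells (horizontal axis) for 12 other integrin chains (vertical axis), with 1 point per labelled mouse and a bar at the mean. Itga2b alone passed the test, with all 4 mice between -3.52 and -2.21.

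Of 31 tested genes that regulate integrin activation or tie integrins to the cytoskeleton, 1 was higher and 1 was lower in Klrd1/Il2rb cells. Among all genes tested 0.627% were higher and 11.5% lower, and the median difference of the 31 was -0.27. The list is not limited to activators, so a rise of a member is not read as more activation. Cytip, which binds cytohesin-1, an activator of LFA-1, rose by a mean of 2.53 ± 0.31 (SD, n = 4 mice; limma adjusted p = 0.0216), with 2.61, 2.18, 2.42 and 2.91 in 1A, 1B, 2A and 2B. Lims1 (PINCH1), an adaptor of integrin-linked kinase, fell by a mean of 1.75 on the log2 scale, in 4 of 4 mice (limma adjusted p = 0.0419). Tln1 (talin) and Fermt3 (kindlin-3), which bind beta-chain tails, differed by 0.59 (limma adjusted p = 0.536) and -1.42 (limma adjusted p = 0.151).

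Among ligands, 6 of 11 were tested, with 1 higher and 0 lower in Klrd1/Il2rb cells, beside 0.627% and 11.5% of all genes tested, and a median difference of -0.19. The 1 was Cdh1, E-cadherin, which is the ligand of alpha-E beta-7 on epithelial cells. It differed by 2.32, 5.43, 2.44 and 5.57 in 1A, 1B, 2A and 2B, a mean of 3.94 ± 1.80 (SD, n = 4 mice; limma adjusted p = 0.0297). The thymic stroma markers measured beside it had a median summed level of 0.554 in Klrd1/Il2rb cells and 0 in Kit-high cells. These medians do not show the minority of cells with such markers. A level of at least 10 was reached in 14.7% and 1.57% of these cells for Epcam and 11.8% and 0% for Cdh5. The shares were 2.94% and 0% for Foxn1, and Col1a1 went the other way (0% and 0.787%). Among 12 homing genes, all tested, 2 were higher and 0 lower, beside the same shares of all genes tested, with a median difference of 0.60. Cxcr3, a chemokine receptor of effector and natural killer cells, rose by a mean of 4.74 ± 1.23 (SD, n = 4 mice; limma adjusted p = 0.0198), in 4 of 4 mice. Selplg, the selectin ligand PSGL-1, rose by a mean of 2.11 ± 0.65 (SD, n = 4 mice; limma adjusted p = 0.0324), in 4 of 4 mice. These calls, like that of Itgb2, rest on 4 units and share the same cells. They were lost in each of the fits over mice in which 0 genes passed, namely with Klrd1 or Il2rb alone, given detected genes, without the first 8 wells, without cells of other types, and without 1A, 1B or 2A.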

How the data were processed

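Single cells were profiled by full-length cDNA amplification and tagmentation, per the labels' protocols, and the submitters' processing notes name Salmon and GRCm38. The deposited values are log2 expression, corrected by the authors, from -4.13 to 15.99. The sources used here do not name the correction tool, the pseudocount or the filters. Columns were matched to 261 of 300 labelled cells (the rest not analysed here). The members and gene lists were chosen with earlier results of these data known.

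From the deposited log2 values, correction sets, detection (tolerance 1e-06) and classes were derived as described in the report. For 12054 features all 4 sets had a level at no reads. In each mouse with at least 3 cells per class, a least-squares difference between Klrd1/Il2rb and Kit-high cells was fitted given the set. limma 3.58.1 (R 4.3.3) tested the 4 differences of each gene against 0 (intercept only, two-sided, Benjamini-Hochberg at 0.05) over 12439 genes detected in at least 10% of cells; all 6 integrin genes passed this filter. limma draws each variance toward that of all genes. Cells were not used as replicates, and p-values measure the spread between the labelled mice. Sets, values and figures were computed in Python 3.11.15 with numpy 2.4.6. The fit was also run on simulated cells, drawn independently inside each set with no further spread between mice. That run therefore does not test the p-values over mice. IDs were matched to GENCODE symbols (13578 matched). Named genes were the 6 integrins, the 3 genes most like each, and per list those past the threshold (at most 8) or otherwise the 2 widest differences. Itgax, Itga1, Tln1, Fermt3, Siglech, Klrk1, Il2rb and Nkg7 were named beside this rule, after their values were seen. So were the markers of T specification, gamma-delta T cells, and basophils and mast cells. Lists of progenitor, T-cell, gamma-delta T, B-cell, erythroid and stromal markers served as checks of the classes. Alternatives changed the class definitions, the covariates, the detection filter, the unit, the wells and cells kept and the limma trend. Intervals are exact Clopper-Pearson at 95%.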

Additional observations from a re-analysis of the deposited data

Results flagged for a closer look

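In 4 of 31 quantities measured in the 4 mice, 1 mouse stood apart from the others by more than a gap test allows at its 95% level, and all 4 were mouse 2B; such a gap arises by chance in about 1 in 20 of them, and the quantities share genes and cells. Itgae was detected in 13.1% of the cells of 2B, against 24.6 to 26.9% in the other mice, and Itgae with Itgb7 in 11.5%, against 24.6 to 25.4%. Itgal was detected in 96.7% of the cells of 2B and in every cell of the other mice, but only set 1 has a level at no reads for it and the share is fixed at 100% in the other sets, so this gap is no measured difference. Itgb7 was detected in 98.4% of the cells of 2B, above 96.9 to 97.1% in the others, but its share is fixed at 100% in set 1, which holds 36 of the 61 cells of 2B, so neither is this one. Mouse 2B held 3 Klrd1/Il2rb cells, against 10 or 11 in the others, and 0 cells in the first 8 wells of a set. The part of either in the Itgae shares was not tested.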

How the results depend on the processing

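All values are log2 differences (Klrd1/Il2rb minus Kit-high), counts of genes called by limma, or percentages of cells. The count of 1510 called genes became 0 with Klrd1 alone, with Il2rb alone, given detected genes, without the first 8 wells, without cells of other types, and with sets as units without the first 8 wells; at an unadjusted p under 0.05 these fits held 3237, 3590, 1582, 2606, 2507 and 2671 genes. The count was 3029 with sets as units, 2304 with sets as units without cells of other types, and 0 to 408 when 1 mouse was left out, where only leaving out 2B gave calls. Klrd1 alone, Il2rb alone and leaving out other cell types kept 3 mice with enough cells, and leaving out the first 8 wells kept 2. The 2 fits with sets as units that leave out cells, and the sum of Itgb2 and Gm14699, were chosen after seeing the data.

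Itgb2 lost its call with Klrd1 alone (4.41), Il2rb alone (4.07), given detected genes (3.56), without the first 8 wells (2.92), without other cell types (3.62), and with sets as units without the first 8 wells (3.30); it was 3.19 to 4.15 when 1 mouse was left out, with the call lost without 1A, 1B or 2A. It stayed positive under all alternatives run. Itgb7 turned negative at any detected level (-0.52), with Klrd1 alone (-0.046), with the upper 3rd of Kit levels as Kit-high (-0.51), without the first 8 wells (-2.51), without other cell types (-0.19), with sets as units without the first 8 wells (-0.48), and without 1B (-0.90) or 2A (-0.70); with 1 mouse left out it ran from -0.90 to 1.71. Itgb1 turned positive with Klrd1 alone (0.49), without 2B (0.13, with -1.93 to 0.13 over the mice left out), without other cell types (0.58) and with sets as units without other cell types (0.019). Itga4 passed at any detected level (-2.81), without the set covariate (-3.18), aligned at no reads (-3.08), over genes in 25% of cells (-3.03), with sets as units (-3.75), with a trend (-3.03) and with sets as units without other cell types (-3.83). Itgal passed with sets as units (1.63) and with these without other cell types (1.88), and Itgae with both (4.31 and 5.81) and with a trend (3.05). The causes were not tested.

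Requiring a level of at least 10 gave 67.2% of cells for Itgb2, 86.1% for Itgb7, 90.9% for Itgb1, 81.7% for Itga4, 92.6% for Itgal and 8.71% for Itgae, and 76.3%, 70.5%, 64.9% and 7.54% for both chains of Itga4-Itgb1, Itga4-Itgb7, Itgal-Itgb2 and Itgae-Itgb7. Itgb7 was detected in 96.4% of cells of sequencing pool 1 and 99.0% of pool 2, and in mouse 2A, which alone spans both, in 93.1% and 100%; set 1, which holds the pool 2 cells of 2A, has no level at no reads for it, so that 100% is fixed and the pool difference is not a measured one. The labels give 1 group, so no groups share replicate numbers; the class difference is itself taken inside each mouse. Detection depends on depth, which is unknown, so a gene at no reads is not shown to be absent.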
